A study of Homo sapiens with 54 samples.

Results

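The comparison described here is that of a high with a low dose of tumour necrosis factor (TNF) after 8 h in HT-29 cells, a human colon adenocarcinoma line of epithelial origin. It used 12 of the 54 arrays of the series: the 6 arrays with TNF at 100 ng/ml and the 6 with TNF at 5 ng/ml, chosen by their labels. The high-dose side held 2 arrays with TNF alone, 2 with epidermal growth factor (EGF) at 100 ng/ml added and 2 with insulin at 500 ng/ml added. The low-dose side held 2 arrays with TNF alone, 2 with EGF at 1 ng/ml added and 2 with insulin at 5 ng/ml added. Every culture of the series, controls included, had been exposed to 200 U/ml interferon-gamma for 24 h before these factors, after plating at 50000 cells per cm2. The labels number 2 replicates per group, described as biological duplicates. The other 6 arrays of 8 h (no further factor, EGF at 100 ng/ml or insulin at 500 ng/ml, without TNF) entered the model for its estimate of spread and serve as the background. Cells with no further factor are called untreated below, although they too had been exposed to interferon-gamma. The whole series crossed 9 treatments with 4, 8 and 16 h of exposure, and RNA was hybridised to Affymetrix oligonucleotide arrays.

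TNF binds its receptors on the cell surface and assembles signalling complexes that activate the transcription factor NF-kB and the stress kinases JNK and p38. NF-kB drives chemokines, adhesion molecules, survival genes and its own inhibitors, so that the pathway restrains itself. A second complex with FADD and caspase-8 can start apoptosis, and interferon-gamma makes HT-29 cells sensitive to it. EGF and insulin act as survival factors through the ERK and AKT kinases.

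A pair of treatments that differ in dose and share the kind of added factor is called an arm, and there were 3 arms: TNF alone, with EGF and with insulin. In the EGF and insulin arms the dose of the added factor rose together with that of TNF and cannot be told apart from it there. TNF alone is the only arm in which nothing but TNF differed, with 2 arrays against 2. Each array gives 1 signal per probe set on a linear scale, and the word signal is used for that value. Differences are log2 of the signal plus 12.49, averaged over the 3 arms unless an arm is named, and ± is the standard error. This scale understates the change of dim genes. A gene rose or fell if the limma adjusted p, with the replicate number as a block, was under 0.05. The number of arrays limits the precision of every value. Each of the 12 arrays was also left out in turn, and a call is said to depend on k arrays if the adjusted p reached 0.05 or more on leaving out k of the 12, one at a time. RNA was taken from whole cultures, so fewer cells with a transcript and less of it per cell cannot be told apart.

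The arrays of both sides were alike in overall level. Array medians were 130.5 to 148 at the high dose and 131.1 to 168 at the low dose. Replicates correlated by 0.945 to 0.964 across probe sets (log2 signals), which are not independent of each other. Of 12 intestinal epithelial markers, 9 passed the filter on low signal and none rose or fell; CDX1, CDX2 and CDH17 were below it. Their summed signal was 63543 to 85758 at the high dose and 60746 to 79132 at the low dose. Markers of leukocytes summed to 577.8 to 856.2 against 695.6 to 1014 and of fibroblasts to 723 to 1074 against 766.4 to 909.3. Those of endothelium summed to 195.8 to 389.4 against 160.4 to 471.7. Among them PTPRC, CD3D, CD14, COL1A2, COL3A1, CDH5 and VWF had medians under the filter. Medians at or above it were found for 2 of 7 leukocyte, 2 of 6 fibroblast and 1 of 4 endothelial markers. ACTB probes near both transcript ends report on RNA length, and the log2 3′ to 5′ ratio was 1.19 in replicate 2 of TNF at 100 ng/ml alone. It was at most 0.14 in the other high-dose arrays and at most 0.34 at the low dose. In replicate 1 of both sides this ratio was −0.26 to −0.08 and in replicate 2 it was 0.09 to 1.19. The 8 h arrays without TNF also entered the fit. Of these, replicate 2 with insulin at 500 ng/ml had 0.98 and replicate 2 with EGF at 100 ng/ml had 0.04. The part of this ratio in the results was not tested, and counts are given with and without replicate 2 of TNF at 100 ng/ml alone.

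The higher dose raised 95 genes and lowered 99 of the 8105 genes measured. This is 1.17% of genes higher and 1.22% lower, 2.39% in all, while the median difference over all genes was −0.03. Changes were mostly below a doubling: 6 genes were higher and 10 lower by 2-fold or more. Of the 95 genes that rose, 77 were higher in 6 of 6 pairs of an arm and replicate number, a pattern found in 3.01% of all genes. Of the 99 that fell, 81 were lower in 6 of 6 pairs, against 4.69% of all genes (7.7% in either direction). The 6 arrays of each side did not overlap in 40 of the genes that rose and 29 of those that fell, where 1.36% of all genes show no overlap in either direction. The same arrays chose the genes, so these counts of pairs and of overlap describe the called genes and are no separate test. Of the genes called, 2 that rose passed the filter on low signal only through groups with TNF 100, and 2 that fell only through groups without it. In probe sets the count was 286, of which 134 were higher and 152 lower.

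How many genes passed depended on the model more than on the scaling. Without the replicate block 27 probe sets were called, among them 15 of the genes that rose and 7 of those that fell. Leaving out any of the 12 arrays lowered the 286 probe sets to between 98 (without replicate 2 of TNF 5 with insulin 5) and 249 (without replicate 1 of TNF 100 alone). The count fell by over 1.5 times without either array of TNF 5 alone (145 and 124), of TNF 5 with EGF 1 (125 and 103) or of TNF 5 with insulin 5 (114 and 98). The same held without either array of TNF 100 with insulin 500 (160 and 118) and without replicate 2 of TNF 100 with EGF 100 (174). Without replicate 2 of TNF 100 alone, the array with the highest ACTB ratio, 187 probe sets were called, with 48 of the 95 rises and 58 of the 99 falls. With the ACTB ratio as a covariate 92 and 91 were kept.

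The changes were then followed in the TNF-alone arrays. There 190 of the 194 genes had the same sign, 187 of them in both replicates, but these arrays are part of the mean that chose the genes. A separate count therefore took genes called in the EGF and insulin arms together, a difference that holds no TNF-alone array, although those arrays entered the estimate of spread. Those arms called 52 genes, 0.642% of all, of which 29 were higher and 23 lower. In the TNF-alone arrays 25 of the 29 were higher too, 17 of them with an unadjusted limma p under 0.05, against 4.42% of all genes higher at that level. Of the 23 lower genes 22 were lower with TNF alone, 14 of them at an unadjusted p under 0.05, against 7.86% of all genes. The median difference of the 29 genes was 0.65 in the arms that chose them and 0.46 with TNF alone. For the 23 it was −0.81 and −0.54. The plot of differences in separate arrays shows these genes.

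**Figure D1:**
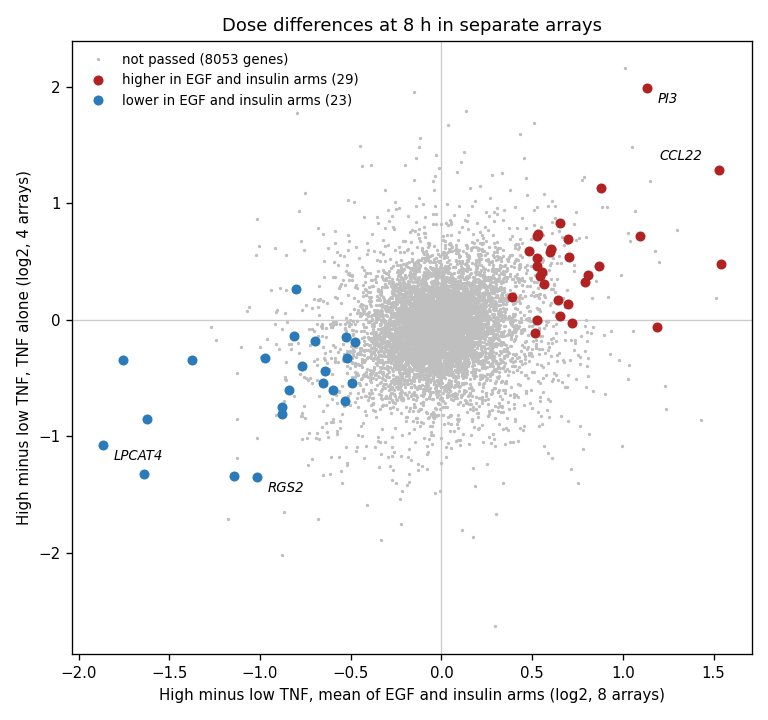
Difference between high and low TNF (log2) with TNF alone (vertical axis, 4 arrays) against the mean of the EGF and insulin arms (horizontal axis, 8 arrays), 1 point per gene. Red points are the 29 genes called higher and blue points the 23 called lower in the EGF and insulin arms; 25 red points lie above 0 and 22 blue points below 0 on the vertical axis.

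Tested on its own, the TNF-alone arm called 12 genes, 0.148% of all or 0.074% in each direction, and 995 had an unadjusted p under 0.05. Higher were PI3, MIA, WFDC2, RELA, CFLAR and GCH1, and lower were STEAP1, DKK1, RGS2, PSPH and PRR15L with HPCAL1, which was named after its values were seen. All but DKK1 were also called in the mean of the arms. Of these 12, PI3 alone kept its TNF-alone call whichever array was left out (adjusted p at most 0.0355). Those of DKK1, RGS2 and STEAP1 depended on 1, 2 and 2 arrays (adjusted p up to 0.0648 for each), and those of the other 8 genes on 3 to 10. In probe sets TNF alone called 21, which became 105 without replicate 1 of TNF 100 alone, 6 without its replicate 2, and 1 and 5 without replicates 1 and 2 of TNF 5 alone. The EGF arm called 21 genes (0.259%) and the insulin arm 8 (0.0987%, or 0.0494% in each direction). Median centring of the arrays moved the median of all genes from −0.06 to 0.06 with TNF alone and from 0.01 to −0.12 with insulin. It changed the split of probe sets from 11 higher and 10 lower to 19 and 6 with TNF alone, and from 7 and 5 to 1 and 11 with insulin.

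Of 20 genes of NF-kB signalling and feedback measured, 6 rose and none fell, against 1.17% of all genes that rose. The median was 0.30, against −0.03 for all genes, and all 20 were above 0. Without replicate 2 of TNF 100 alone 2 were called, which was the lowest count with any of the 12 arrays left out, and with no replicate block 1 was. RELA encodes the p65 subunit, which carries the transactivating domain of the usual NF-kB dimer. Its signal was 2514 and 2532 with TNF 5 alone, 3238 and 2803 with EGF 1 and 3132 and 2286 with insulin 5. At TNF 100 it was 4290 and 4421 alone, 3512 and 3490 with EGF 100, and 4557 and 3736 with insulin 500. All 6 high-dose values were above all 6 low-dose values, and the untreated arrays had 1518 and 1555. The difference was 0.54 ± 0.08 (1.455-fold, adjusted p 0.00283), and with TNF alone it was 0.78 ± 0.14. RELA passed without each array in turn and without the block.

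Among the inhibitors of the pathway TNFAIP3, TNIP1 and NFKBIA rose, while NFKBIB (0.07), NFKBIE (0.26), TNIP2 (0.32) and CYLD (0.36) did not pass. TNFAIP3, which encodes the ubiquitin-editing brake A20, had signals of 1224 to 1851 (median 1641) at the low dose and 2103 to 3035 (median 2572) at the high dose, with 200.2 and 161 in untreated cells. The sides did not overlap, and the difference was 0.69 ± 0.14 (adjusted p 0.0226). TNIP1, whose protein works with A20, went from 3917 to 4779 (median 4426) to 5443 to 6378 (median 5992), again without overlap, a difference of 0.43 ± 0.08 (adjusted p 0.00935). NFKBIA, which encodes the inhibitor IkB-alpha, stood at 1407 and 1468 in untreated cells, at 7322 to 9091 (median 8605) with the low dose and at 8020 to 11860 (median 11050) with the high dose. Its sides overlapped and the difference was 0.30 ± 0.07 (adjusted p 0.042). TRAF1, an adaptor of TNF receptors, was dim: 17.1 to 83.9 (median 66.5) against 90 to 203 (median 108), a difference of 1.12 ± 0.24 (adjusted p 0.0258). Untreated cells had TRAF1 signals of 83.2 and 81.5, within the upper part of the low-dose range. The difference was 0.77 with TNF alone and 0.41 with EGF (unadjusted limma p 0.0852 and 0.341), and 2.19 with insulin. TNF 5 with insulin 5 had TRAF1 signals of 24.1 and 17.1, below those of untreated cells. TRAF1 passed the filter through 4 groups, all with TNF 100 and 1 of them at 8 h, so it could enter the count only as a gene high at that dose. RELB, which encodes another subunit, was the sixth and rose by 0.32, a call that depended on 10 arrays; it is named after its value was seen. The calls of TNFAIP3, TRAF1 and NFKBIA depended on 7, 8 and 10 arrays (adjusted p up to 0.082, 0.0845 and 0.145), and that of TNIP1 on none.

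These are the 250 bases before a start listed by RefSeq on GRCh38.p14, 5′ to 3′ on the strand of the gene. They are given for the 4 NF-kB pathway genes with the largest rise among those called. A single start per gene was used, and other starts of the same gene were not searched. The windows are shown so that the NF-kB motif can be looked for in genes of its own pathway. Capitals mark matches to the 10-base NF-kB consensus on either strand.
TRAF1 promoter, chr9:120929172-120929421, minus strand: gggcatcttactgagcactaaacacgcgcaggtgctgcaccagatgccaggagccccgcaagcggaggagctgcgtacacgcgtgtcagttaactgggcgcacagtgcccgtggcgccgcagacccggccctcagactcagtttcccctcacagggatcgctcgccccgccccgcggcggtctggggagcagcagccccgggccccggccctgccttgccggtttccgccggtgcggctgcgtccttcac
TNFAIP3 promoter, chr6:137867009-137867258, plus strand: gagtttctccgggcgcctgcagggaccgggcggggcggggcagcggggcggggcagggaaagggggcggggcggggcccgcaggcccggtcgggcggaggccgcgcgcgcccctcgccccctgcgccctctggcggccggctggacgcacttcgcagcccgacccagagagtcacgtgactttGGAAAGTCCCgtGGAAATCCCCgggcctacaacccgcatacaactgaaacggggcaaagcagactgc
RELA promoter, chr11:65663858-65664107, minus strand: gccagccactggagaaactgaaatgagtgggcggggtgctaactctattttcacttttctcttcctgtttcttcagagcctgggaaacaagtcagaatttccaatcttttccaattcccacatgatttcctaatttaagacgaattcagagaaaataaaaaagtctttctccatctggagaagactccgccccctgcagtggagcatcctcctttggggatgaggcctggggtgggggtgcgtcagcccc
TNIP1 promoter, chr5:151065132-151065381, minus strand: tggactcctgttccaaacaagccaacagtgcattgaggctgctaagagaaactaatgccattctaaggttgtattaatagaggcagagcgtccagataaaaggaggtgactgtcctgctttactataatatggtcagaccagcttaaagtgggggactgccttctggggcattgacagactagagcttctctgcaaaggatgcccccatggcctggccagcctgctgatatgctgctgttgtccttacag
TNFAIP3 held 2 matches, GGAAAGTCCC and GGAAATCCCC, which begin 67 and 55 bases before the start. The windows of the other genes held none, which says nothing of sequence outside them or at other starts. Among all 27305 RefSeq promoters 5.05% held a match in the same 250 bases, and of the genes measured here 6.04%. Promoters were found for 80 of the 95 genes that rose, of which 12 (15%) held a match, and for 81 of the 99 that fell, of which 3 (3.7%) did. The core of the interferon-stimulated response element (ISRE), on either strand, was in 9 of the 80 (11.2%) and 0 of the 81, against 2.76% of genes measured. A match describes letters in this window and shows no binding.

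Chemokines that recruit lymphocytes and myeloid cells were among the largest rises. Of 24 chemokine and cytokine genes measured, 5 rose and none fell, against 1.17% of all genes that rose. The median of the 24 was 0.38 and 22 were above 0. Without replicate 2 of TNF 100 alone 4 were called. CCL22, a ligand of the receptor CCR4, had signals of 20.2 and 27.5 in untreated cells. With TNF 5 it had 259 and 111 alone, 225 and 310 with EGF 1, and 199.9 and 199 with insulin 5. With TNF 100 it had 328 and 576 alone, 723 and 580.4 with EGF 100, and 961 and 556 with insulin 500. Every high-dose array was above every low-dose array. The difference was 1.45 ± 0.21 (2.735-fold, adjusted p 0.00294), and 1.29 ± 0.37 with TNF alone. CCL5, which attracts T cells and monocytes, ran from 207 to 315 (median 219) at the low dose and from 391 to 651 (median 468) at the high dose, with no overlap, a difference of 0.96 ± 0.14 (adjusted p 0.00255). CX3CL1, the membrane-bound ligand of CX3CR1, ran from 1468 to 2862 (median 2058) and from 2852 to 4773 (median 3301), so that the sides overlapped by a narrow margin, and differed by 0.71 ± 0.11 (adjusted p 0.00475). CXCL1, a neutrophil attractant, ran from 2329 to 3630 (median 2847) and from 3497 to 4587 (median 4231), with a small overlap, and differed by 0.53 ± 0.09 (adjusted p 0.0071). The fifth was TNFSF10, described with the death receptors. All 4 calls held without each array in turn, and those of CCL22 and CCL5 also held without the block.

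Other strongly induced TNF targets did not pass between these doses. CXCL8, which encodes interleukin-8, stood at 267 and 339.5 in untreated cells, at 6973 to 14027 (median 7378) with the low dose and at 9880 to 15681 (median 11376) with the high dose. Its difference was 0.48 with a 95% interval of 0.21 to 0.75, and the adjusted p was 0.0644. CXCL10, a target of interferon-gamma, was already bright in untreated cells (8864 and 10292), which had also been exposed to interferon-gamma. Its medians were 24896 and 25728. Its difference was 0.05, with an interval of −0.15 to 0.26, which holds no change of the size seen in CCL22 or CCL5. CCL20 had a median of 2017 at the low dose and 3370 at the high dose, a difference of 0.64 with a wide interval of 0.15 to 1.14 (adjusted p 0.206). For ICAM1, an adhesion molecule, the medians were 9864 and 12084, and the difference of 0.28 (interval 0.11 to 0.46) had an adjusted p of 0.102. Of 17 genes of adhesion and pericellular proteases, VCAM1 and LAMB3 (0.61 ± 0.14) rose, with calls that depended on 10 arrays each. VCAM1, a ligand of leukocyte integrins, had 206 and 186 with TNF 5 alone and 375 and 419 with TNF 100 alone. With EGF it had 206 and 205 against 185 and 182, so that its higher level was seen in the other arms and in 4 of 6 pairs.

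Some secreted protease inhibitors of mucosal surfaces rose. Of 12 genes of antiproteases and mucosal defence measured, 4 rose and none fell, against 1.17% of all genes that rose. The median was 0.33. The count was 2 without replicate 2 of TNF 100 alone, and 1 without replicate 2 of TNF 5 alone, of TNF 5 with EGF 1 or of TNF 5 with insulin 5, or with no replicate block. SLPI, an inhibitor of the same kind, did not pass (−0.18). PI3 encodes elafin, an inhibitor of neutrophil elastase made by epithelia. It stood at 142 and 130 in untreated cells, at 892 and 683 with TNF 5 alone, and at 3523 and 2789 with TNF 100 alone. With EGF it went from 1340 and 994 to 2619 and 2683, and with insulin from 1636 and 857 to 2588 and 2451. The high-dose values were within 2451 to 3523 in every arm, above the highest low-dose value of 1636. PI3 differed by 1.42 ± 0.12 (2.675-fold, adjusted p 2.4e-05), and by 1.99 ± 0.21 with TNF alone (adjusted p 0.00129). SERPINA3, alpha-1-antichymotrypsin, had medians of 198 and 395 and differed by 0.92 ± 0.19 (adjusted p 0.0244), with overlap of the sides. WFDC2 had medians of 479 and 757, a difference of 0.47 ± 0.09, and was higher in 5 of 6 pairs. SERPINA1, alpha-1-antitrypsin, had medians of 5719 and 7004, a difference of 0.35 ± 0.08 (adjusted p 0.0287). The calls of SERPINA3, WFDC2 and SERPINA1 depended on 9, 4 and 7 arrays.

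Genes of the type I interferon response rose in part. Of 39 measured, 10 rose and none fell, against 1.17% of all genes that rose. The median of the 39 was 0.18, and 31 were above 0. The count was 4 without replicate 2 of TNF 100 alone and 2 without replicate 2 of TNF 5 alone or either array of TNF 5 with insulin 5, and 1 with no replicate block. RSAD2, which encodes the antiviral enzyme viperin, had 139 and 143 with TNF 5 alone, no higher than the 150.2 and 136 of untreated cells. With TNF 100 alone it had 382 and 232, with EGF it went from 242 and 175 to 327 and 299, and with insulin from 189 and 171 to 352.5 and 235. The lowest high-dose value was just under the highest low-dose value. RSAD2 differed by 0.75 ± 0.14 (adjusted p 0.0112). OASL, an oligoadenylate synthetase-like antiviral gene, ran from 2301 to 2877 (median 2670) and from 3612 to 5072 (median 4467) with no overlap, and differed by 0.70 ± 0.09 (adjusted p 0.000794). IFIT2, which binds foreign RNA, differed by 0.54 ± 0.11 and IFI16, a DNA sensor, by 0.49 ± 0.11. The calls of RSAD2 and OASL held without each array in turn, while those of IFIT2 and IFI16 depended on 7 and 11 arrays. The other members that rose were IFIT3 (0.44), ISG20 (0.44), RIGI (0.46), MX1 (0.39), HERC6 (0.36) and IFI44 (0.35), all named after their values were seen; these calls depended on 9, 5, 11, 8, 12 and 7 arrays, in that order. IFNB1, interferon-beta itself, had 8.38 to 22.15 at the low dose and 12.4 to 34.25 at the high dose, below the filter signal of 138.9 in all 12 arrays.

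Among direct targets of interferon-gamma and genes of antigen presentation 1 gene was called. Over all genes 2.39% were called, so counts this low do not set these groups apart. Of the interferon-gamma targets 16 were above 0 and 6 below, with a median of 0.07 against −0.03 for all genes. Of 22 interferon-gamma targets 1 rose, GCH1, the first enzyme of tetrahydrobiopterin synthesis, with signals of 2106 to 2764 (median 2463) against 2832 to 4102 (median 3443). Its sides were apart, and it differed by 0.52 ± 0.06 (adjusted p 0.000684). IRF1, the transcription factor that carries much of the interferon-gamma response, had medians of 9405 and 8671 and a difference of −0.10 (interval −0.26 to 0.05). None of 18 genes of MHC class I and peptide loading passed (median 0.00), nor any of 13 MHC class II genes (median −0.04). Of 10 complement genes, C1S rose by 0.33 ± 0.08 (adjusted p 0.0352), a call that depended on 11 arrays.

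**Figure D2:**
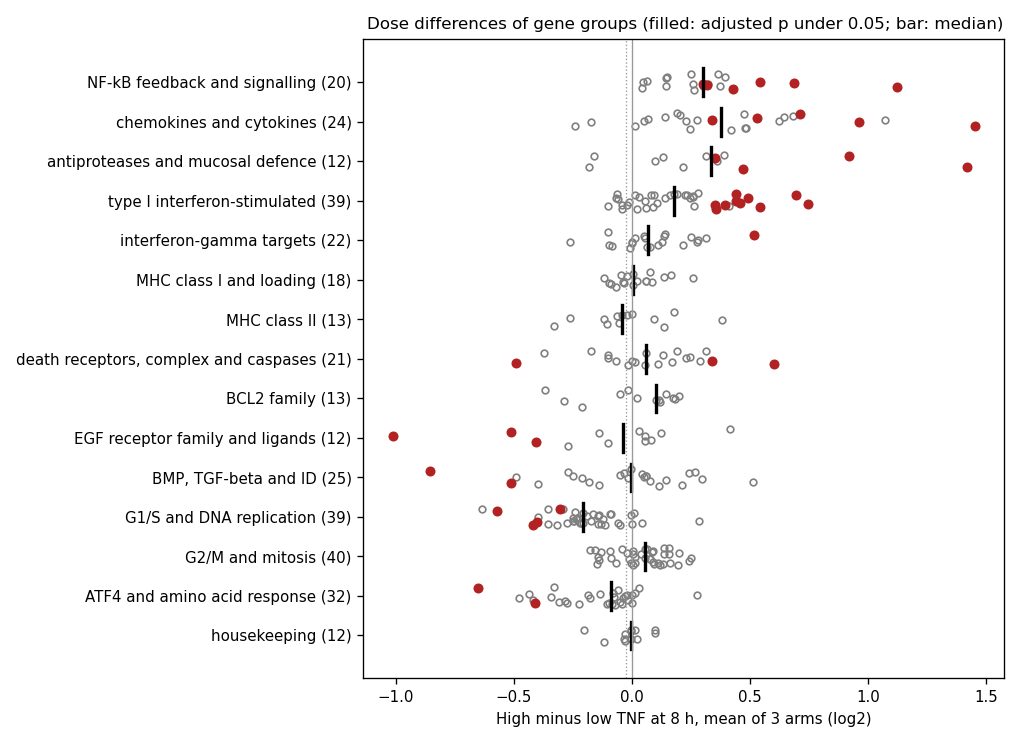
Difference between high and low TNF at 8 h (log2, mean of 3 arms) for 15 gene groups, with the number of genes measured in brackets. Each circle is a gene, filled circles have an adjusted p under 0.05, black bars are group medians, and the dotted line is the median of all genes at −0.03; all 20 NF-kB genes lie above 0 and 35 of the 39 genes of DNA replication lie below 0.

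Genes of the death receptor complex moved in both directions. CFLAR encodes c-FLIP, which blocks caspase-8 in the receptor complex. It stood at 2248 and 2349 in untreated cells, at 3185 to 4309 (median 3875) with the low dose and at 5353 to 6723 (median 5536) with the high dose. The sides did not overlap, and the difference was 0.60 ± 0.07 (1.52-fold, adjusted p 0.000637), with 0.74 ± 0.12 for TNF alone. FADD, the adaptor that joins caspase-8 to the receptors, had 1681 and 1610 in untreated cells. With TNF alone it went from 1472 and 1363 to 945 and 904, with EGF from 1289 and 1167 to 724 and 800.1, and with insulin from 1357 and 1026 to 1166 and 926. It was lower in 6 of 6 pairs although the sides overlapped, and it fell by 0.49 ± 0.08 (adjusted p 0.00677). Both calls held without each array in turn, and that of CFLAR also without the block. TNFSF10, which encodes the death ligand TRAIL, rose by 0.34 ± 0.08 (adjusted p 0.0423), a call that depended on 10 arrays. These were 3 of 21 genes measured in this group, against 2.39% of all genes called. CASP8 itself had medians of 1479 and 1562 and a difference of −0.02 (interval −0.21 to 0.17), and TNFRSF10B, a TRAIL receptor, differed by 0.25 (interval 0.03 to 0.46, adjusted p 0.278). None of 13 genes of the BCL2 family passed, which with 2.39% of all genes called does not set the family apart.

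Among the remaining large rises were genes of the epithelial surface and receptors. SPRR1B, a precursor of the cornified envelope of squamous epithelia, had 126 and 150 with TNF 5 alone, and 167 and 229 with TNF 100 alone. With EGF it went from 134 and 164 to 416.5 and 617, and with insulin from 77.8 and 73 to 183 and 259.5. No high-dose array was within the low-dose range, and SPRR1B differed by 1.19 ± 0.15 (adjusted p 0.000817). PTAFR, the receptor for platelet-activating factor, ran from 284 to 465 (median 327.5) and from 476.5 to 879 (median 677) and differed by 0.97 ± 0.15 (adjusted p 0.00477). Untreated cells had PTAFR signals of 271 and 490, the latter within the high-dose range. MIA, a small secreted protein first described in melanoma, went from 506 and 326 to 1473 and 1071 with TNF alone and differed by 0.82 ± 0.15 (adjusted p 0.00935) over the arms. These 3 calls held without each array in turn. SEMA4C, a semaphorin, differed by 0.77 ± 0.17 (adjusted p 0.0258). SLC24A1, a sodium, calcium and potassium exchanger, and HAPSTR1, a stress response gene, differed by 1.39 ± 0.32 and 1.16 ± 0.27. Their medians were only 24.6 and 58.7 at the low dose and 91.5 and 161 at the high dose, and their calls depended on 11 and 9 arrays, that of SEMA4C on 8. Untreated cells had 33.1 and 95.9 for SLC24A1 and 128.8 and 53.2 for HAPSTR1, so that each gene had an untreated array within its high-dose range. Insulin at 500 ng/ml without TNF gave HAPSTR1 signals of 144.4 and 166.5. SLC24A1 passed the filter through 1 group, TNF 100 alone at 16 h, and so only through the high dose. Below these, FOSL1, an AP-1 subunit, rose by 0.49 ± 0.08, DUSP5, a phosphatase that restrains ERK, by 0.40 ± 0.09, and CDKN1A, the cell cycle inhibitor p21, by 0.67 ± 0.14. CDKN1A stood at 275 and 176 in untreated cells, at 724 to 1027 with the low dose and at 1078 to 2085 with the high dose, without overlap. The DUSP5 and CDKN1A calls depended on 11 and 8 arrays. With TNF alone the differences were 0.17 for FOSL1, 0.21 for DUSP5 and 0.39 for CDKN1A, with unadjusted limma p of 0.253, 0.2 and 0.125. FOSL1 had 467 and 410 in untreated cells, 1166 and 1167 with EGF at 100 ng/ml without TNF, and 805 and 909 with insulin at 500 ng/ml without TNF.

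**Figure D3:**
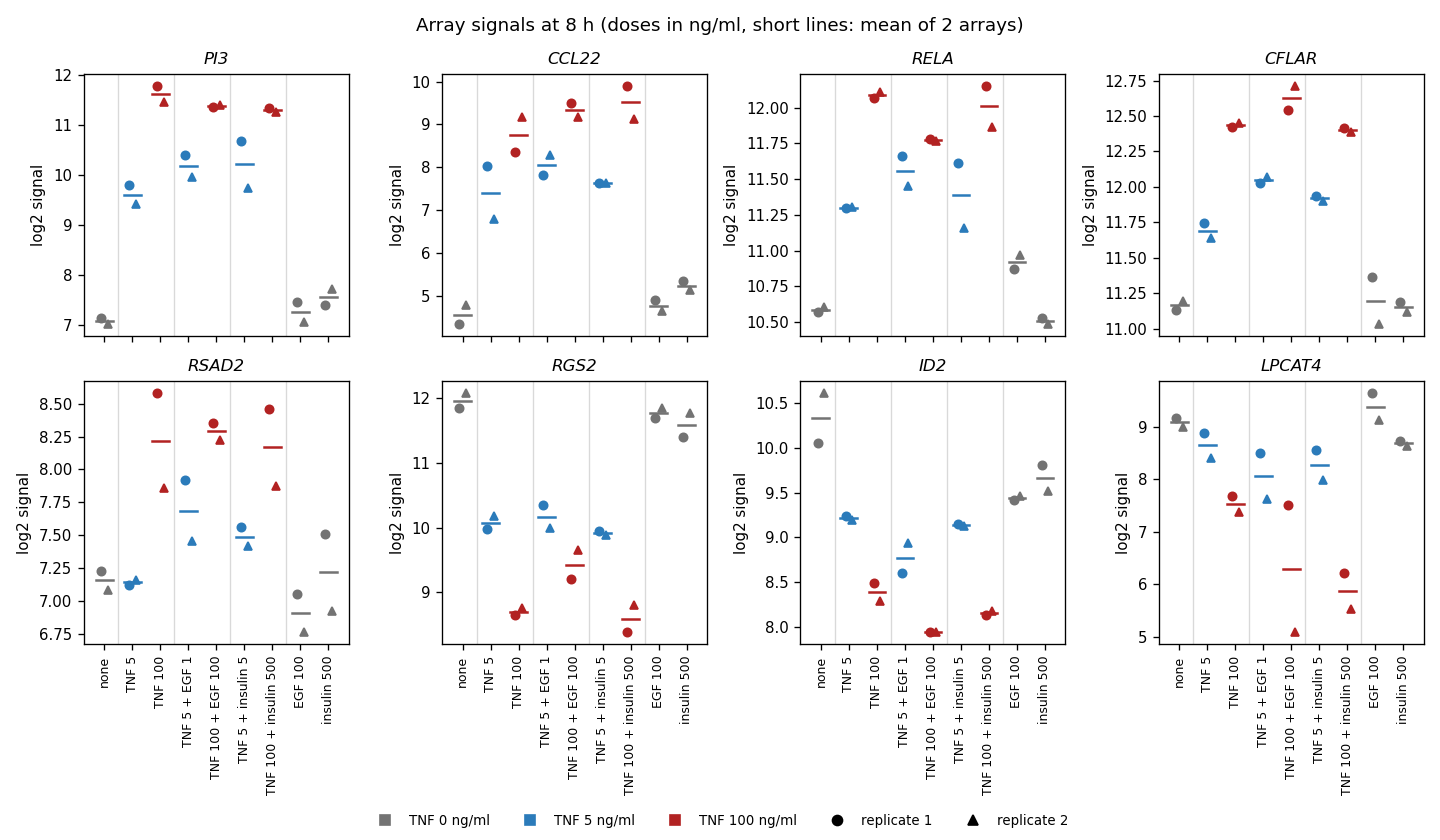
Signal of 8 genes (log2 of the deposited signal) in each 8 h array, with circles for replicate 1, triangles for replicate 2 and short lines for the mean of 2 arrays; grey marks no TNF, blue 5 ng/ml and red 100 ng/ml. In PI3, CCL22, RELA, CFLAR, RGS2 and ID2 no red point lies within the range of the blue points, while RSAD2 with TNF 5 alone lies at the level of untreated cells.

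Of the genes that fell, RGS2 had the smallest adjusted p. RGS2 is a GTPase-activating protein that shortens signalling by G-protein coupled receptors. Untreated cells had 3684 and 4316. With TNF alone it had 1007 and 1156 at the low dose and 401 and 433 at the high dose, with EGF 1300 and 1022 against 590.4 and 804, and with insulin 989 and 946 against 335 and 446. The sides did not overlap, and both were below the untreated arrays. RGS2 fell by 1.12 ± 0.10 (2.18-fold lower, adjusted p 2.4e-05), and the difference with TNF alone was −1.35 ± 0.17 (adjusted p 0.0026). PRR15L, a proline-rich protein of little known function, ran from 734 to 1213 (median 964) and from 376 to 693 (median 557), without overlap, and fell by 0.83 ± 0.08 (adjusted p 4.3e-05). CCDC85B, a coiled-coil repressor protein, had medians of 982 and 563 and fell by 0.76 ± 0.10 (adjusted p 0.00152). All 3 calls held without each array in turn and without the block.

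The steepest falls were in dim genes, and 7 of the 12 largest had a high-dose median under the filter signal of 138.9. LPCAT4, an acyltransferase of phospholipid remodelling, had 577 and 513 in untreated cells, 197 to 471 at the low dose and 34 to 205 at the high dose. One array of each side lay within the range of the other, and it fell by 1.60 ± 0.20 (3.03-fold lower, adjusted p 0.000817). FGFR3, a receptor of fibroblast growth factors, had medians of 157 and 33.7 against 514.5 and 360.3 in untreated cells, and fell by 1.53 ± 0.27 (adjusted p 0.00904). SYK, a tyrosine kinase also found in epithelia, ran from 143 to 184 and from 45.4 to 116 without overlap and fell by 1.21 ± 0.20 (adjusted p 0.00642). These 3 held without each array in turn. NYNRIN, CHST12 (a chondroitin sulfotransferase) and TRAPPC12 (a vesicle tethering subunit) fell by 1.37 ± 0.26, 1.29 ± 0.29 and 1.15 ± 0.23, and SLC25A14, a mitochondrial carrier, by 0.76 ± 0.16. Their calls depended on 3, 9, 4 and 5 arrays, in that order, and CHST12 passed the filter only through groups without TNF 100. In the same order the differences with TNF alone were −0.85, −0.34, −1.19 and −0.33 (unadjusted limma p 0.0758, 0.501, 0.0092 and 0.252). With EGF they were −1.50, −2.33, −1.23 and −1.41, and with insulin −1.75, −1.18, −1.02 and −0.54. The difference between arms did not pass for any of them. EGF at 100 ng/ml without TNF gave NYNRIN signals of 145 and 227, against 323 and 352 in untreated cells.

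Of 12 genes of EGF receptors, ligands and regulators, 3 fell and none rose, against 1.22% of all genes that fell. The median was −0.04, near the −0.03 of all genes. LRIG1, a membrane protein that promotes the degradation of EGF family receptors, had medians of 197 and 95.4 and fell by 1.01 ± 0.24 (adjusted p 0.0352). ERBB3, a co-receptor without strong kinase activity, had medians of 880 and 616 and fell by 0.51 ± 0.11 (adjusted p 0.0234). ERBB2, its signalling partner, had medians of 620.5 and 437 and fell by 0.41 ± 0.10 (adjusted p 0.0464). With TNF alone, where no other dose changed, the differences were −1.01 for LRIG1, −0.36 for ERBB3 and −0.23 for ERBB2, with unadjusted limma p of 0.0248, 0.0653 and 0.21. EGF at 100 ng/ml without TNF gave ERBB3 signals of 648 and 676 against 1121 and 1009 in untreated cells. All 3 were lower in 6 of 6 pairs with overlapping sides, and their calls depended on 8, 7 and 12 arrays. Without replicate 2 of TNF 100 alone none of the 3 passed. EGFR, the EGF receptor, had the opposite sign, with medians of 481 and 674 and a difference of 0.41 (interval 0.11 to 0.72, adjusted p 0.186).

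Among 25 genes of the BMP and TGF-beta pathways 2 fell and none rose, against 1.22% of all genes that fell. The median was 0.00. ID2, an inhibitor of differentiation that binds basic helix-loop-helix factors, had 1065 and 1563 in untreated cells. It ran from 388 to 605 (median 565) at the low dose and from 245.5 to 360.5 (median 284) at the high dose. The sides did not overlap, and it fell by 0.85 ± 0.11 (adjusted p 0.000817). TGFBR2, the ligand-binding receptor of TGF-beta, ran from 912 to 1088 and from 537 to 797, again apart, and fell by 0.51 ± 0.08 (adjusted p 0.00379). Both passed without each array in turn. ID1 did not pass (−0.25, interval −0.46 to −0.04). With TNF alone it had 8393 and 5461 at the low dose, above the 4785 and 4014 of untreated cells, and 5087 and 3853 at the high dose.

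Of 39 genes of the G1/S step and replication 4 fell and none rose, against 1.22% of all genes that fell. Of the 39, 35 were below 0, with a median of −0.21 against −0.03 for all genes. MCM5, a subunit of the replicative helicase, had 1631 and 1489 in untreated cells, 673 to 852 (median 711) at the low dose and 321 to 659 (median 506) at the high dose. The sides were apart, and it fell by 0.57 ± 0.11 (adjusted p 0.0176). RFC4, a subunit of the clamp loader, fell by 0.42 ± 0.09, GINS1, part of the helicase complex, by 0.40 ± 0.09, and MCM6 by 0.30 ± 0.07. With TNF alone MCM5 and RFC4 differed by −0.44 and −0.50, GINS1 by −0.15 and MCM6 by −0.16 (unadjusted limma p 0.0395, 0.00405, 0.337 and 0.229), and GINS1 differed by −0.93 with insulin (adjusted p between arms 0.325). These 4 calls depended on 4, 6, 9 and 11 arrays, none of the group was called without either array of TNF 5 with insulin 5, and 1 gene was called without replicate 2 of TNF 100 alone. None of 40 genes of mitosis passed, which with 2.39% of all genes called does not set them apart, and their median was 0.05. CCND3, cyclin D3, ran from 1099 to 1300 (median 1260) and from 787 to 1032 (median 943), and fell by 0.38 ± 0.07 (adjusted p 0.0146); its call depended on 2 arrays (adjusted p up to 0.0523).

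Some genes differed between the arms. The test of the dose difference between arms passed for 2 genes, DKK1 and STEAP1 (0.0247% of genes; 761 had an unadjusted p under 0.05), and for 0 probe sets with no replicate block. DKK1 encodes a secreted inhibitor of Wnt signalling. It had 988 and 1091 in untreated cells, 734 and 641 with TNF 5 alone and 252.3 and 252 with TNF 100 alone. With EGF it had 835 and 1169 at the low doses and 1363 and 1416 at the high doses, and EGF at 100 ng/ml without TNF gave 2390 and 2660. With insulin it had 524 and 520.3 against 676 and 528. The higher dose went with lower DKK1 with TNF alone (−1.40 ± 0.17) and with values of the opposite sign with EGF (0.49) and with insulin (0.19), and the adjusted p of the difference between arms was 0.0146. STEAP1, a protein of the cell surface, had 214 and 206 in untreated cells. With TNF alone it had 960.4 and 623 at the low dose and 355 and 224 at the high dose, so the low dose gave the highest level of the 3. With EGF it had 918 and 759 against 528 and 451, and with insulin 893 and 582 against 1078 and 820 (adjusted p between arms 0.0466). These calls depended on 6 arrays for DKK1 and 10 for STEAP1 (adjusted p up to 0.137 and 0.431). Without replicate 2 of TNF 100 alone the adjusted p was 0.137 for both.

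Of 32 genes of the ATF4 and amino acid response 2 fell and none rose, against 1.22% of all genes that fell. Of the 32, 28 were below 0. The median was −0.09, or −0.34 with TNF alone, against −0.03 and −0.06 for all genes. PSPH, the last enzyme of serine synthesis, had 777 and 403 with TNF 5 alone and 256 and 199 with TNF 100 alone, against 519 and 571 in untreated cells. With EGF it went from 474.5 and 598 to 320 and 222.5, while with insulin the values were 809 and 533.5 against 930 and 683. Over the arms PSPH fell by 0.65 ± 0.14 (adjusted p 0.0239), lower in 4 of 6 pairs. SLC1A5, a glutamine transporter, had 2954 and 2524 with TNF 5 alone and 1535 and 1818 with TNF 100 alone, and fell by 0.41 ± 0.08 (adjusted p 0.016), lower in 5 of 6 pairs. The difference between arms did not pass for PSPH or SLC1A5 (limma adjusted p 0.236 and 0.482). The calls of PSPH and SLC1A5 depended on 6 and 2 arrays. DNAJB9, an endoplasmic reticulum co-chaperone, stayed near its untreated 937 and 1173 with TNF 5 alone (1010 and 1239) and had 2495 and 2267 with TNF 100 alone. With EGF it went from 1441 and 1585 to 3039 in both, and with insulin from 1083 and 1403 to 889 and 2050. It rose by 0.74 ± 0.13 (adjusted p 0.00938), the only gene of 19 in its group to pass. MT1X, a metallothionein, rose by 0.39 ± 0.09 over the arms but had 6736 and 8616 against 3841 and 8454 with insulin, and its call depended on 9 arrays. SC5D, an enzyme of cholesterol synthesis, ran from 1792 to 2320 and from 2524 to 3011 and rose by 0.38 ± 0.07 (adjusted p 0.0125).

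**Figure D4:**
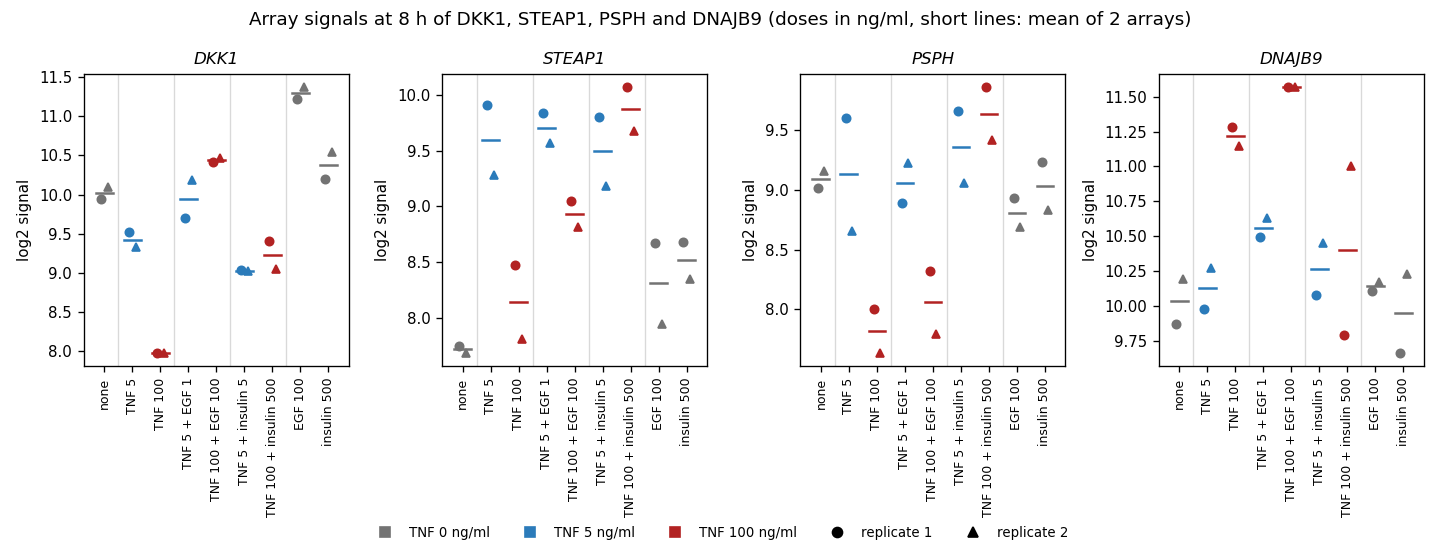
Signal of DKK1, STEAP1, PSPH and DNAJB9 (log2 of the deposited signal) in each 8 h array, with circles for replicate 1, triangles for replicate 2 and short lines for means; grey marks no TNF, blue 5 ng/ml and red 100 ng/ml. DKK1 is lowest with TNF 100 alone (252.3 and 252) and higher with EGF, and STEAP1 and PSPH are lower with TNF 100 alone or with EGF but not with insulin.

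In several groups no gene passed in either direction: 13 genes of the Wnt pathway, 25 of intestinal differentiation, 20 of ribosome biogenesis and 12 housekeeping genes. Of 18 genes that insulin represses through FOXO factors, ERBB3 alone passed. With 2.39% of all genes called, counts this low do not set these groups apart. Of the remaining genes set down by name, DUSP6 (0.28), FOS (−0.51), EGR1 (−0.11), CEBPA (−0.80) and SOSTDC1 (−0.49) did not pass, with adjusted p from 0.176 to 0.76. BIRC3 was not among the genes measured. In all, 27 of the 28 genes so named were measured and 11 passed.

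The same dose difference was measured at 4 h and 16 h in other arrays. At 4 h 86 of the 95 genes that rose had the same sign and 46 were called higher, against 1.42% of all genes. At 16 h 90 had the same sign and 70 were called higher, against 4.05%, and 41 were called at both. Of the 99 genes that fell, 81 had the same sign at 4 h and 13 were called lower (2.25% of all genes). At 16 h 85 had the same sign, 29 were called lower (5.98%), and 1, CCND3, was called higher; 5 were called lower at both times. Median differences of the rising genes were 0.32, 0.48 and 0.42 at 4, 8 and 16 h, and of the falling genes −0.14, −0.50 and −0.23. The 8 h values chose these genes, so their 8 h medians are a description. After median centring 36 and 73 of the rising genes were called at 4 and 16 h, and 9 and 14 of the falling genes. It turned the 16 h split of all probe sets from 494 higher and 739 lower to 669 and 203, and that at 4 h from 185 and 229 to 158 and 100; quantile normalization gave 527 and 515 at 16 h.

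Single genes followed different courses. PI3 differed by 1.61, 1.42 and 1.28 at 4, 8 and 16 h and PRR15L by −0.88, −0.83 and −0.72, with adjusted p of at most 4.3e-05 at each time. CX3CL1 differed by 1.33 at 4 h, 0.71 at 8 h and 0.54 at 16 h, and CCL5 by 0.40, 0.96 and 2.46. FADD differed by −0.68 at 4 h and 0.08 at 16 h. The test of the dose difference between times passed for 146 genes (1.8%). Its smallest adjusted p values were those of CCND3 (1.7e-05), DKK1 (1.98e-05), CCL5 (2.1e-05), UCP2 (6.2e-05) and RRAGC (8.2e-05). These calls held without each of the 12 arrays of 8 h in turn. No array of 4 or 16 h was left out, so how far the calls depend on those arrays was not tested. CCND3 differed by −0.14, −0.38 and 0.45 at the 3 times, and DKK1 by −0.81, −0.24 and 0.28. UCP2, a mitochondrial carrier, differed by −0.16, −0.31 and −1.05, and RRAGC, a GTPase that reports amino acids to mTORC1, by −0.29, 0.08 and 0.57. IFNB1 differed by 0.37 (interval −0.60 to 1.33) at 8 h and by 2.13 at 16 h (adjusted p 1.9e-06). It was under the filter signal in every 8 h array, so it passed the filter only through a group at 4 or 16 h. Its 16 h difference can therefore rest on the same values that let it pass. CXCL8, which did not pass at 8 h, differed by 1.30 at 16 h (adjusted p 3e-08). HAPSTR1 and NYNRIN, both dim, differed by −0.22 and −0.19 at 4 h and by 0.16 and 0.04 at 16 h and passed at neither time.

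**Figure D5:**
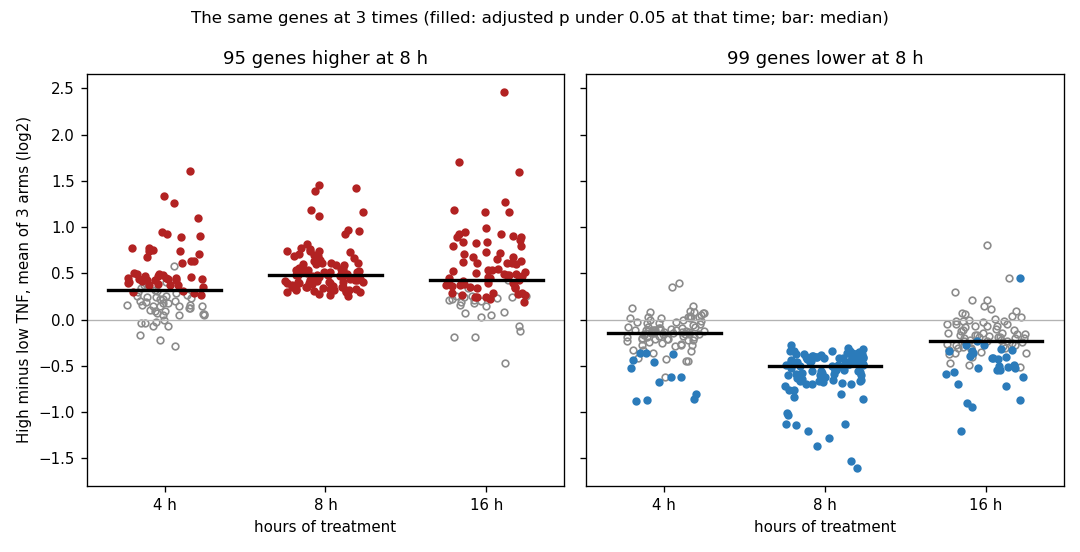
Difference between high and low TNF (log2, mean of 3 arms) at 4, 8 and 16 h for the 95 genes that rose (left) and the 99 that fell (right) at 8 h; filled points have an adjusted p under 0.05 at that time and black bars are medians. At 16 h 70 of the 95 are filled above 0 and 29 of the 99 are filled below 0.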

How the data were processed

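Cells of the HT-29 line were profiled on Affymetrix human genome arrays. The deposited values are linear MAS5 signals, per the submitters' processing notes, and were taken as intensity; the mean left after trimming 2% at both ends lay between 500.171 and 500.221 in all 54 arrays, and no further scaling was applied. Controls (68 of 22283 probe sets) were dropped. The pseudocount of 12.49 is the 10th percentile of the signals, and log2 followed. The filter retained 13422 probe sets whose group mean reached 138.9 (log2 7.24) in 1 or more of the 27 groups. In the platform annotation 19065 probe sets carry 1 symbol, 1043 more than 1 and 2107 no symbol. The 8105 genes are each represented by the retained probe set of highest mean. No gene had probe sets called in opposite directions.

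The model for 8 h (limma 3.58.1, R 4.3.3) took 18 arrays, 9 group means and the replicate number as a block, with 8 residual degrees of freedom. Moderation of the variances followed signal level (trend), and Benjamini-Hochberg adjustment ran over all 13422 probe sets. Values at 4 and 16 h come from 1 fit of all 54 arrays (24 residual degrees of freedom) with replicate blocks within each time. The block was used because numbers pair the 8 h arrays: deviations from group means of same-numbered arrays correlated by 0.286 to 0.472 in 15 of 15 pairs of TNF groups, above the bound of 0.1. The fit was tested on simulated data. Alternatives covered scaling, pseudocount, filter, variance model, block, ACTB ratio, arrays in the fit and each of the 12 arrays left out. Leaving out both 8 h arrays of highest ACTB ratio and the count in the EGF and insulin arms were added after seeing the data. The genes named are the 12 largest rises and 12 largest falls that had the same sign in 6 of 6 pairs, up to 4 called members of each list, the smallest p values between arms and between times, and 28 fixed genes. Members and lists were chosen with earlier results of these data known. Promoters are RefSeq sequences on GRCh38.p14, matched by gene ID for 6710 of the 8105 genes.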

Additional observations from a re-analysis of the deposited data

Results flagged for a closer look

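In 8 of 122 groups of 6 arrays tested, 1 array lay apart from the other 5; chance gives about 1 in 20. The ACTB ratio of TNF 100 alone, replicate 2, was 1.19. Replicate 1 of TNF 100 alone was highest for PI3 (3523) and for RFC4 (823). Replicate 1 of TNF 100 with insulin 500 was lowest for DNAJB9 (889) and for MT1X (3841). At the low dose, CCDC85B was lowest in replicate 2 of TNF 5 with EGF 1 (623), VCAM1 highest in replicate 1 of TNF 5 with insulin 5 (328) and NFKBIA lowest in replicate 2 of TNF 5 alone (7322).

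The dose difference was not alike in the 3 arms for DKK1 (limma adjusted p 0.0146) and STEAP1 (0.0466). It was not alike at 4, 8 and 16 h for CCND3 (limma adjusted p 1.7e-05), DKK1 (1.98e-05), CCL5 (2.1e-05), UCP2 (6.2e-05) and RRAGC (8.2e-05), the 5 smallest of 146 genes. The causes were not tested.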

How the results depend on the processing

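Counts here are of probe sets. For the mean of 3 arms, 286 were called, against 140 with the 12 arrays in an additive model, 462 with all 54 arrays, 187 without the filter, 106 without the intensity trend, 27 with no replicate block, 2 within replicate 1 and 1 within replicate 2 alone; 98 to 249 were called with 1 array left out. TNF alone called 21: 8 with array weights, 11 without the filter, 8 without the trend, 5 with no replicate block, 10 without both arrays of highest ACTB ratio, and 1 to 105 with 1 array left out. The EGF arm called 32: 14, 15, 12 and 0 under the first 4 of these, and 0 to 111. The insulin arm called 12: 24, 6, 6 and 0 under the same 4, 19 with the ACTB ratio as covariate, 7 after quantile normalization, 27 without both arrays of highest ratio, and 0 to 18. The test between arms called 4: 2, 2, 1 and 0 under the same 4, 2 after quantile normalization, 0 without both arrays, and 0 to 18. The 4 h fit called 414 (258 after median centring, 193 with no replicate block, 392 to 433). The 16 h fit called 1233 (599 with no replicate block, 1195 to 1264). The test between times called 207 (83 after median centring, 27 with no replicate block, 164 to 227). The arrays left out for these ranges were all of 8 h. The causes of these shifts were not tested, except that fewer arrays leave fewer residual degrees of freedom. All 59 called genes that are named kept their direction in the alternatives run for the mean of 3 arms; 27 passed with each array left out, and 15 with no replicate block. Signals near 138.9 and below limit what can be said of dim genes.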
